A study of Mus musculus with 24 samples.

Results

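In 8 lines of the mouse colon adenocarcinoma cell line MC38, 252 genes of the 52636 in the table were on in at least 1 line and off in at least 1 other. A gene was taken as on in a line when all 3 samples reached 20 normalized counts, and as off when none of the 3 exceeded 2. A normalized count is a read count per gene scaled by the authors for library size and composition and rounded to a whole number. The thresholds were met by 315 genes, and 63 of these were left out, either because they lie on chromosome 10, 15, X or Y or because they belong to named families such as the collagens, protocadherins, chemokines and interferon-induced genes. The values of all 24 samples chose the 252 genes, so their differences between lines are given as a description, and no test of them is read as a result.

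All cells were MC38, a line from a C57BL/6 mouse, with 3 samples per line, and every line but the parental MC38-WT was kept in puromycin. The CRISPR-Cas9 lines were MC38-MOCK#1, which has no target gene, MC38-CMAS KO, a knockout of the CMP-sialic acid synthetase gene Cmas, MC38-COSMC KO, a knockout of the T-synthase chaperone gene C1galt1c1, and MC38-DKO, a knockout of both, all at passages 4, 5 and 6. The CRISPR-dCas-VPR lines, in which an inactive Cas9 fused to activators is meant to raise a gene from its own promoter, were MC38-MOCK#2 without a target and MC38-FUT9, both at passages 6, 7 and 8, and a line labelled MC38-FUT4 at passages 7, 8 and 7, while MC38-WT was at passages 7, 8 and 9. MC38-COSMC KO was sorted in bulk for binding of a lectin to the Tn antigen, and for the other lines it is not given in the sources used here whether a line is a pool or a clone. Samples of a line come from the same line, so their spread covers at most culture and library and not a repeat of the engineering.

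A gene that is silent in a population of cultured cells can be silent in every cell or expressed in very few, and bulk RNA does not tell these apart. In mammals the silent state of a promoter can be passed on through cell division by DNA methylation and by repressive histone marks, and promoters rich in CpG, the dinucleotide that carries the methylation, are mostly unmethylated and active in many tissues, whereas promoters poor in CpG tend to serve tissue-restricted genes. Tumour cell lines often express genes of tissues other than their own, and sublines of the same tumour line are known to differ in which of these genes they express.

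The promoters of 5 on-off genes are printed here because they differ widely in CpG content. The windows are the 250 bases before the RefSeq start in GRCm38.p6, 5′ to 3′ on the strand of the gene, with every CG in capitals. Plcb1 and Pnrc2 are CpG-rich examples with 22 and 21 CG and 71.2% and 69.2% G or C. Akr1c14 has 1 CG and 38.8% G or C, and its RefSeq start lies inside the span of the gene in the Ensembl annotation. Tmem45a and Adgrg7 are neighbours on chromosome 16 that were on in the same line, with 10 and 1 CG.
Plcb1 (chr2:134785914-134786163, plus strand): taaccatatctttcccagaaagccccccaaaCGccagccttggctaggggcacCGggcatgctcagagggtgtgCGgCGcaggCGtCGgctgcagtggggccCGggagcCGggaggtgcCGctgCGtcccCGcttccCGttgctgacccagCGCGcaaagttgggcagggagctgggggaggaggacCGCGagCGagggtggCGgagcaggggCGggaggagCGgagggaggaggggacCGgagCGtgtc
Pnrc2 (chr4:135873847-135874096, minus strand): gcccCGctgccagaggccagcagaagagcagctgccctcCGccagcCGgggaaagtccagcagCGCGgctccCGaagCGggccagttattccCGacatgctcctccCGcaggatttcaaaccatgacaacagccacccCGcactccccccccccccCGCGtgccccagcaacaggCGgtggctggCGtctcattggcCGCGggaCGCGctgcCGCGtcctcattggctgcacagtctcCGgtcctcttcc
Akr1c14 (chr13:4059341-4059590, plus strand): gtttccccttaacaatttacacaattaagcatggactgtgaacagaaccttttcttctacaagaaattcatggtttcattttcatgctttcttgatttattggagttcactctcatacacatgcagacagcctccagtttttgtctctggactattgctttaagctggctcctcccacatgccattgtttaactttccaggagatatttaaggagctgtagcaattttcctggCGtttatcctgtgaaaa
Tmem45a (chr16:56886164-56886413, minus strand): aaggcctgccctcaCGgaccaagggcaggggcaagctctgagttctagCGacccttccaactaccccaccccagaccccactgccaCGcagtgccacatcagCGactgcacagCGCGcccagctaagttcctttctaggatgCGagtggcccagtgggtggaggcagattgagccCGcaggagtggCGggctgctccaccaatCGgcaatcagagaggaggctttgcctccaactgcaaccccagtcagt
Adgrg7 (chr16:56795859-56796108, minus strand): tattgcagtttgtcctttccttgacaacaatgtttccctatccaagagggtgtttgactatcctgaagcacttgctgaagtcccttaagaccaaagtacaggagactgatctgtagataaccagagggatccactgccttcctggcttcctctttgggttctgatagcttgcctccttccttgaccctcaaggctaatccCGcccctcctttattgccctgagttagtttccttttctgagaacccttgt

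The deposited totals were 10911849 to 12263307 normalized counts, alike because the authors scaled for library size, so they do not give the sequencing depth, which is unknown here. Genes above 0 numbered 18581 to 20838. The lowest value above 0 was 1 in 22 libraries and 2 in 2, sample 3 of MC38-WT and sample 1 of MC38-DKO, so a value of 0 to 2 stands for very few reads, and a gene called off was not detectable above that level. In MC38-FUT9, 11955 to 12018 genes reached 20, against 12069 to 12343 in the other lines. Cmas had 93 to 126 normalized counts in MC38-CMAS KO and 122 to 142 in MC38-DKO, against 272 to 416 elsewhere. C1galt1c1 was at 124 to 163 in MC38-COSMC KO and 166 to 206 in MC38-DKO, against 152 to 251 elsewhere, so the values of MC38-DKO lay within those of the lines in which it was not targeted, and counts over a whole gene do not read the edited bases. Fut9 was at 641 to 955 in MC38-FUT9 and, outside it and the line labelled MC38-FUT4, at most at 7. In the line labelled MC38-FUT4, Fut4 was at 1, 0 and 1 and Fut9 at 209, 171 and 186, so the RNA went against the label, and it is called the line labelled MC38-FUT4 throughout. Of the colon epithelial markers, only Krt20 of 14 reached 20 in any sample, with Epcam and Cdh1 at most at 3, while 12 of 13 mesenchymal markers reached 20. Of 12 leukocyte markers only Cd68 reached 20, and none of 5 endothelial markers did.

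Few of the genes had only 2 levels. Over the 2016 combinations of a gene with a line, 583 were on, 457 were off and 976 lay between. Only 8 genes were either on or off in every line. Among all 12769 genes on in at least 1 line, 2.47% were on-off before the exclusions. The on-off genes were modestly expressed where they were on: the median over the 252 genes of the highest line median was 48 normalized counts, at the 9.2th percentile of all genes on in a line, whose median was 475. In 52 of them the highest line median was at least 100. Separation was measured by the gap, the log2 ratio of the lowest value plus 1 in the highest line to the highest value plus 1 in the lowest line. The median gap was 4.25, the largest 8.67, and 75 genes had a gap of at least 5. In 65 genes a line was at 0 in all 3 samples, and there the mean of the highest line was at least 6.78-fold to at least 199-fold higher, with a median of at least 14.9-fold, against a floor of 3 normalized counts per library.

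**Figure D1:**
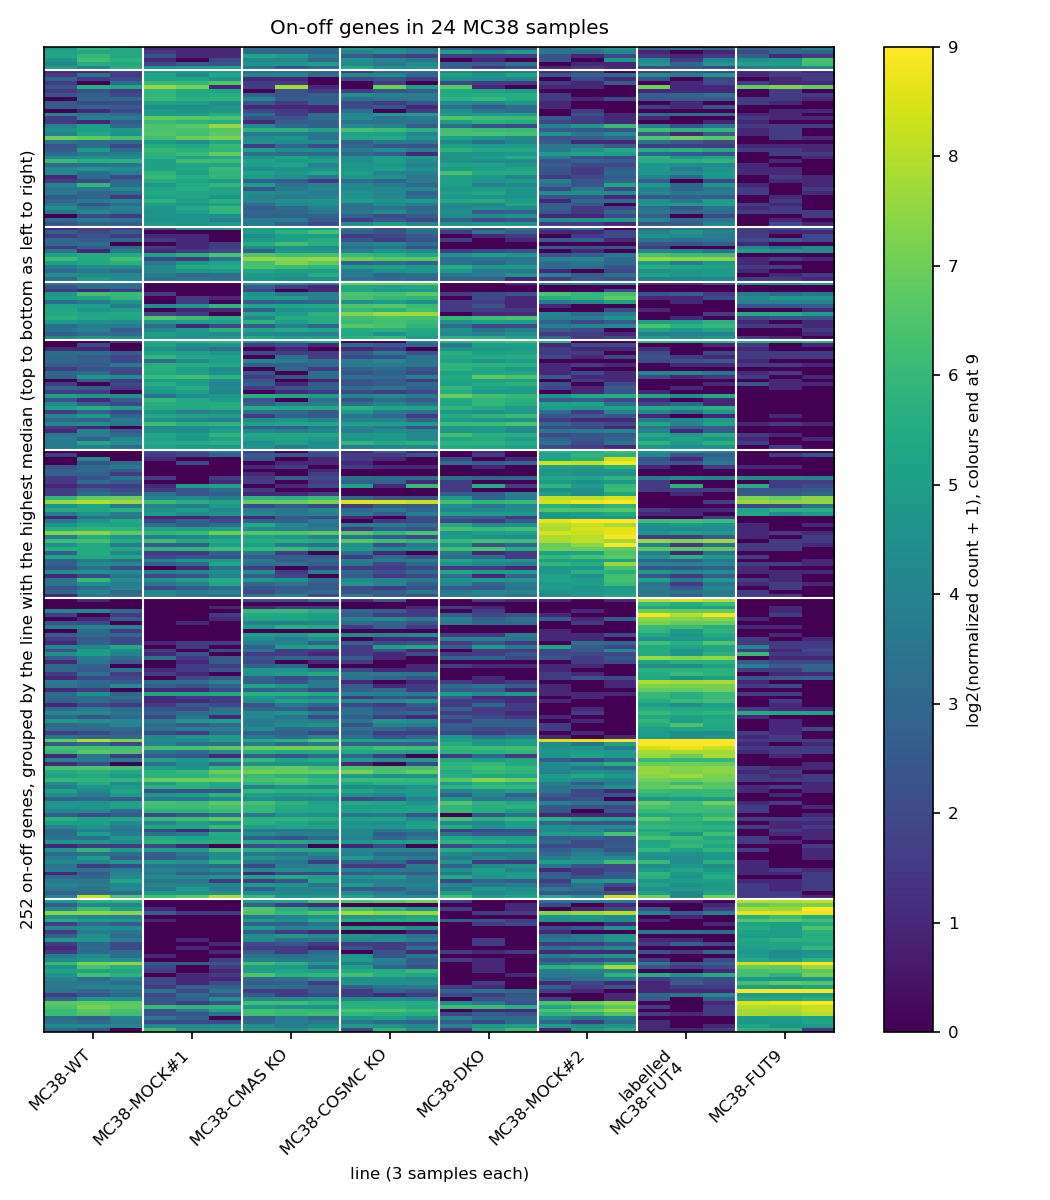
Rows are the 252 on-off genes, grouped by the line with the highest median, columns are the 24 samples in their 8 lines, and the colour is log2(normalized count + 1). The columns of MC38-FUT9 are dark over most of the rows, where 176 genes were off, while MC38-WT has intermediate colours, with 183 genes neither on nor off.

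MC38-FUT9 held most of the silent genes. It was off for 176 of the 252 genes (69.8%), and for 110 of them it was the only line off, while 43 genes were on in it and 19 of these in no other line. The line labelled MC38-FUT4 had the most genes on, 106, with 39 on in it alone, and 59 off. Off counts were close to each other in MC38-MOCK#1 (55), MC38-DKO (57) and MC38-MOCK#2 (56), and lower in MC38-COSMC KO (20), MC38-CMAS KO (18) and MC38-WT (16). Since 1 line supplied so many of the calls, the rule was also applied without it: 123 of the 252 genes were still on-off among the other 7 lines and 74 among the 6 lines left without the line labelled MC38-FUT4 as well. Between the lines without a target gene alone, MC38-WT, MC38-MOCK#1 and MC38-MOCK#2, 35 genes were on-off, and 44 were on-off among MC38-WT and the 4 CRISPR-Cas9 lines. All these counts are of the 252 chosen genes. Over all genes outside the exclusions, 10278 were on in the line labelled MC38-FUT4. The other lines ran from 10104 in MC38-FUT9 to 10321 in MC38-MOCK#1, so over all genes the line labelled MC38-FUT4 did not have the most on. The other counts were not made over all genes on in a line.

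Among these genes, which the lines at either end had chosen, the parental line was seldom at an end. A line that defined few of the genes would lie between in most of them, and no such share over all genes was computed. MC38-WT was neither on nor off for 183 genes (72.6%), the largest such count among the 8 lines, and its median lay strictly between the lowest and highest line medians for 235 genes (93.3%). The same count was 228 in MC38-CMAS KO, 220 in MC38-COSMC KO, 177 in MC38-DKO, 162 in MC38-MOCK#1, 161 in MC38-MOCK#2, 122 in the line labelled MC38-FUT4 and 56 (22.2%) in MC38-FUT9. Of the 176 genes off in MC38-FUT9, 125 were above 2 in all 3 samples of MC38-WT, but only 31 were on there. Of the 43 genes on in MC38-FUT9, 35 were above 2 in all samples of MC38-WT and 16 were on. Of the 59 genes off in the line labelled MC38-FUT4, 37 were above 2 in all samples of MC38-WT and 15 were on, and of the 106 genes on in that line 29 were on in MC38-WT. In bulk samples, fewer cells with the gene on and less RNA per cell cannot be told apart.

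**Figure D2:**
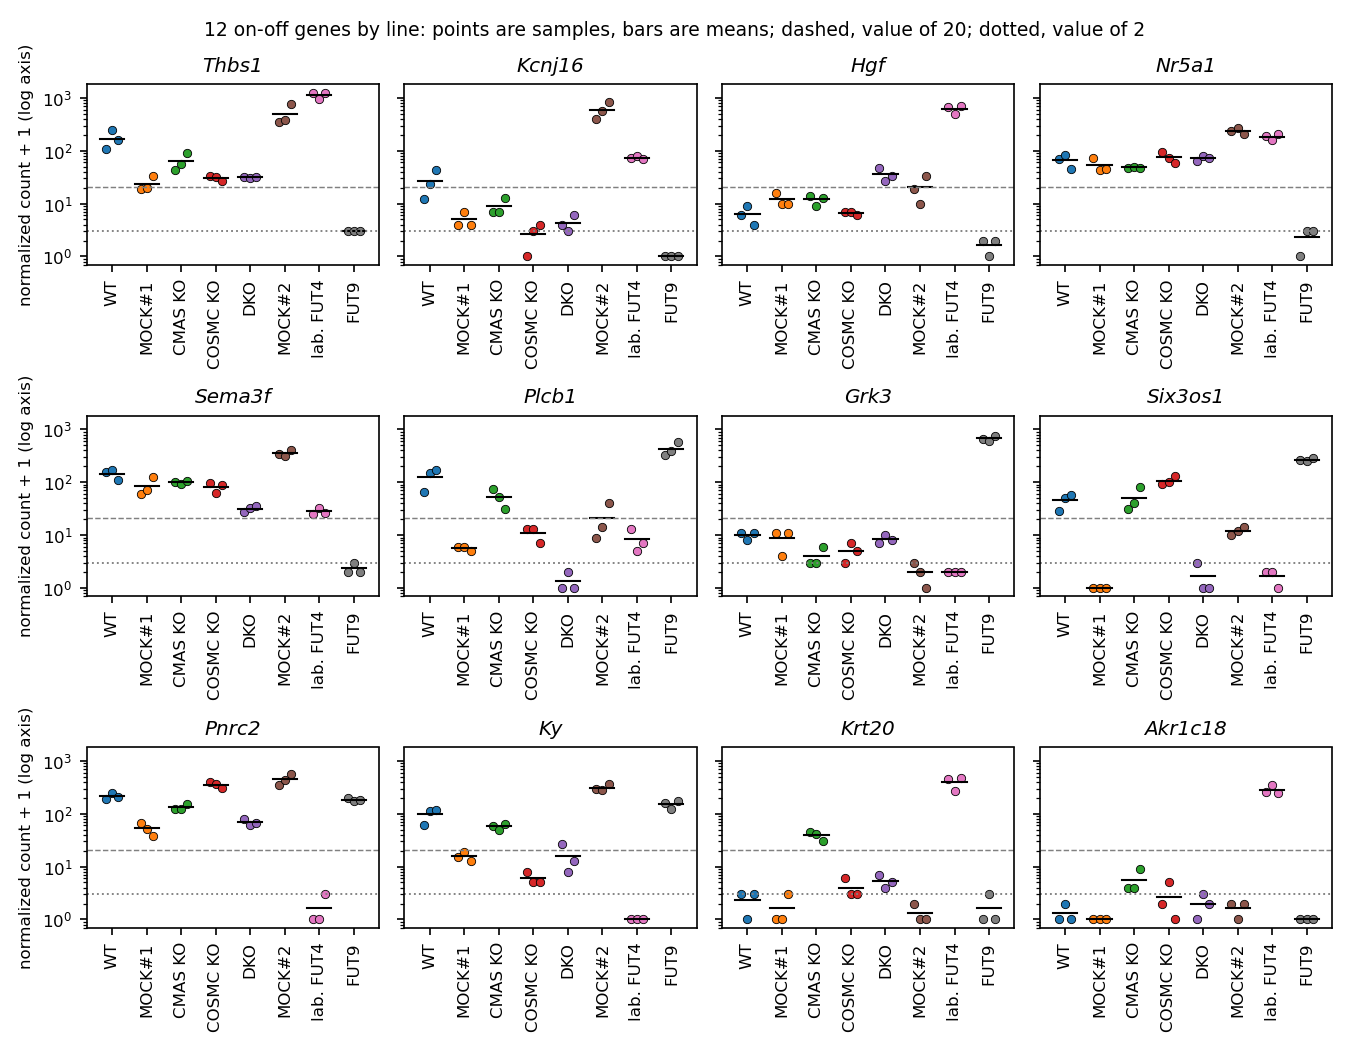
Each panel shows the normalized count plus 1 (log axis) of an on-off gene in 8 lines. Points are the 3 samples, bars the mean, the dashed line marks a value of 20 and the dotted line a value of 2. Thbs1, Kcnj16, Hgf, Nr5a1 and Sema3f lie at or below the dotted line in MC38-FUT9, Pnrc2 and Ky in the line labelled MC38-FUT4, and Krt20 and Akr1c18 are highest in that line.

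Among potassium channel genes, Kcnj16, which encodes an inwardly rectifying channel subunit, had the widest gap of all. Kcnj16 (chr11:110968033-111027968) was at 407, 557 and 826 in MC38-MOCK#2 and at 73, 78 and 69 in the line labelled MC38-FUT4. It was at 11, 23 and 43 in MC38-WT, between 0 and 12 in the CRISPR-Cas9 lines, and at 0 in all samples of MC38-FUT9. The mean in MC38-MOCK#2, 597 ± 212 (SD, n = 3), was at least 199-fold above MC38-FUT9. Kcnj2, a related channel gene that starts 38195 bases beyond the end of Kcnj16, had 225, 335 and 387 in MC38-MOCK#2 and 1, 0 and 0 in MC38-FUT9. Unlike Kcnj16 it was on in MC38-DKO, at 81, 62 and 74, and it was at 2, 6 and 4 in MC38-COSMC KO. Trpa1, a cation channel of sensory neurons opened by irritants, was at 195, 169 and 167 in the line labelled MC38-FUT4 and at 186, 164 and 183 in MC38-CMAS KO. MC38-FUT9 had 1, 2 and 1, and MC38-MOCK#1 with 3, 2 and 10 and MC38-DKO with 9, 9 and 10 were also low, so Trpa1 differed among the Cas9 lines as well. In all, 13 of 260 channel and transporter genes on in a line were on-off (5.0%), against 2.27% of all such genes outside the exclusions.

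Of secreted matrix proteins and growth factors, Thbs1 and Hgf had the widest gaps. Thbs1, which encodes the matrix glycoprotein thrombospondin, lies at chr2:118111876-118127133. It was at 1256, 969 and 1225 in the line labelled MC38-FUT4, at 345, 384 and 753 in MC38-MOCK#2 and at 2 in each sample of MC38-FUT9. Between these, MC38-WT had 108, 242 and 157, and MC38-MOCK#1 had 18, 19 and 32, so the 8 lines covered the whole range rather than 2 levels. Hgf, the ligand of the Met receptor, was at 681, 503 and 703 in the line labelled MC38-FUT4 and at 1, 0 and 1 in MC38-FUT9. In every other line Hgf stayed between 3 and 46, the highest being MC38-DKO with 46, 26 and 32. Ogn, a small leucine-rich proteoglycan of the matrix, was at 117, 175 and 535 in MC38-MOCK#2 and at 2, 2 and 1 in MC38-FUT9. Dkk2, a secreted modulator of Wnt signalling, ran the other way, with 35, 30 and 51 in MC38-FUT9 and 0 in all samples of MC38-MOCK#1 and MC38-DKO. Igfbp5, a binding protein of insulin-like growth factors, was on in MC38-MOCK#1 alone, at 88, 103 and 189, and at 2 in each sample of MC38-FUT9. Pappa, a secreted protease that cleaves such binding proteins, was on in MC38-MOCK#2 alone, at 336, 307 and 469, and at most at 12 in every other sample. Fgf15, a growth factor of the intestine, was on in 4 lines, and Egfr, the receptor of epidermal growth factor, in 5, and both were off in MC38-FUT9, Fgf15 at 0, 1 and 1 and Egfr at 2, 0 and 0.

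Genes of cell adhesion and axon guidance were the group with the largest share of on-off genes, 18 of 102 on in a line (17.65%), against 2.27% of all genes on in a line outside the exclusions. The groups were made from symbols and chosen with results of these data known, and no test was run on them. Sema3f, a secreted guidance cue that repels axons, was at 346, 308 and 412 in MC38-MOCK#2, at 24, 32 and 25 in the line labelled MC38-FUT4 and at 1, 2 and 1 in MC38-FUT9. Robo2, a receptor of Slit guidance cues, was at 178, 157 and 169 in the line labelled MC38-FUT4 and at 39, 39 and 31 in MC38-CMAS KO. The other lines had Robo2 at 18 or less, with 1, 0 and 0 in MC38-FUT9 and 0, 0 and 1 in MC38-MOCK#1. Cadm1, an adhesion molecule of the immunoglobulin superfamily, was highest in MC38-DKO at 119, 80 and 63 and at 0 in all samples of MC38-FUT9. Itgb8, an integrin subunit, was off in MC38-MOCK#1 (0, 1 and 2) and in MC38-DKO (0, 0 and 1), and on in 5 lines, among them MC38-FUT9 at 79, 57 and 134. Epha3, an ephrin receptor, was on in MC38-WT at 37, 40 and 40 and in MC38-MOCK#2 at 63, 83 and 103, and off in MC38-FUT9. Of these 5 adhesion and guidance genes, all but Itgb8 were off in MC38-FUT9.

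Developmental transcription factors included regulators of organs that MC38 does not come from. Pax2, a regulator of kidney development, was on in 6 lines, for example at 92, 80 and 83 in MC38-CMAS KO, was at 4, 6 and 11 in MC38-MOCK#2 and at 0 in all samples of MC38-FUT9. Nr5a1, the regulator of adrenal and gonadal steroid synthesis, was on in 7 lines at 42 or more, reaching 232, 273 and 209 in MC38-MOCK#2, and was at 0, 2 and 2 in MC38-FUT9. Hey1, a target of Notch signalling, was likewise on in 7 lines, with 169, 208 and 145 in the line labelled MC38-FUT4, and at 2, 1 and 2 in MC38-FUT9. For each of these 3 genes MC38-FUT9 was the only line off. Creb3l1, a membrane-bound factor of the endoplasmic reticulum, had the opposite arrangement: it was on in MC38-FUT9 at 223, 202 and 251, in MC38-WT at 71, 90 and 72 and in 3 further lines, and off in the line labelled MC38-FUT4 at 2, 1 and 2. Creb3l1 was also at 9 or less in MC38-MOCK#1 and MC38-DKO. Lmo1, a LIM-domain cofactor, was on in MC38-COSMC KO alone, at 40, 35 and 39, and at 0 in all samples of 5 other lines. Zinc finger protein genes were on-off at the rate of all genes, 8 of 353 (2.27%).

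Metabolic enzymes made up 20 of the 252 genes, of 198 on in a line (10.1%). Akr1c18, which inactivates progesterone, and Akr1c14, a related hydroxysteroid dehydrogenase, lie 41926 bases apart on chromosome 13 and were on in different lines. Akr1c18 was at 253, 352 and 251 in the line labelled MC38-FUT4, and at 8 or less in every other sample. Akr1c14 was at 255, 299 and 231 in MC38-MOCK#2, at 22, 28 and 23 in the line labelled MC38-FUT4 and at 1, 0 and 1 in MC38-FUT9. Genes of this family resemble each other, so reads can be lost or misplaced among them. Plcb1, a phospholipase C with the CpG-rich promoter printed above, was at 321, 385 and 586 in MC38-FUT9 and at 65, 146 and 171 in MC38-WT. MC38-DKO had Plcb1 at 0, 1 and 0, while MC38-MOCK#1 had 5, 5 and 4. Car12, a membrane carbonic anhydrase, was at 239, 219 and 231 in the line labelled MC38-FUT4 and at 15 or less elsewhere, with 0, 0 and 1 in MC38-MOCK#2. Sphk1, which makes sphingosine phosphate, was on in MC38-MOCK#1 at 62, 44 and 32 and in MC38-DKO at 40, 59 and 53, and at 9 or less in all other samples. Arsj, an arylsulfatase gene, was the mirror image within the Cas9 lines, at 2 or less in MC38-MOCK#1 and MC38-DKO and at 31 to 65 in MC38-CMAS KO and MC38-COSMC KO. Cyp2b23, a cytochrome P450 gene, was on in MC38-CMAS KO alone, at 47, 76 and 52. Mgmt, which repairs alkylated guanine in DNA, was at 28, 20 and 37 in MC38-MOCK#1, at 7 to 10 in MC38-WT and at 0 in all samples of MC38-FUT9.

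Immune genes numbered 15 of 174 on in a line (8.62%). Il7, a cytokine needed by lymphocytes, was on in 6 of the 8 lines, with 133, 122 and 111 in MC38-MOCK#2, and at 2, 2 and 0 in MC38-FUT9. Cd40, a receptor of the tumour necrosis factor family, was at 68, 63 and 63 in the line labelled MC38-FUT4, at 5, 3 and 7 in MC38-MOCK#2 and at 0 in all samples of MC38-FUT9. For both genes MC38-FUT9 was the only line off. Clec4d, a lectin receptor of myeloid cells, was at 148, 145 and 141 in the line labelled MC38-FUT4 and at 1, 0 and 1 in MC38-MOCK#2. The leukocyte gene Ptprc stayed at 6 or less in every sample of the series. Of the myeloid markers, Lyz2 was at 17, 10 and 14 in the line labelled MC38-FUT4 and at 15 or less elsewhere. Cd68 was at 33, 48 and 36 in that line and at 17 to 63 over the series. The summed level of the 12 leukocyte markers was 56 to 68 in that line and 22 to 76 in the other lines. Syk, a tyrosine kinase of immune receptors, was on in MC38-MOCK#1 at 61, 42 and 35 and in MC38-DKO at 42, 44 and 46, and at 10 or less in the other samples. Ptpn20, a tyrosine phosphatase, was on in MC38-FUT9 alone, at 111, 130 and 142, and at 0 in all samples of MC38-MOCK#1 and MC38-COSMC KO.

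Krt20, a keratin of the intestinal epithelium, was at 448, 263 and 468 in the line labelled MC38-FUT4, at 44, 41 and 30 in MC38-CMAS KO and at 6 or less elsewhere. The summed level of the 14 epithelial markers was 266 to 477 in the line labelled MC38-FUT4 and 4 to 51 in the other lines, and no other marker on that list exceeded 8 in any sample, so in that line nearly all of the sum was Krt20. Stxbp2, a regulator of granule exocytosis, was at 429, 386 and 424 in MC38-FUT9 and at 162 or more in MC38-WT, MC38-COSMC KO and MC38-MOCK#2, but at 0, 2 and 2 in MC38-DKO. In MC38-MOCK#1 it was at 5, 2 and 2. Tns1, a focal adhesion protein, had the same lines at either end, with 120, 107 and 208 in MC38-FUT9 and 3 or less in MC38-MOCK#1 and MC38-DKO.

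Of the genes without a common role, Pnrc2, Ky and Oaf were off in the line labelled MC38-FUT4 only. Pnrc2, an adaptor of mRNA decapping with the CpG-rich promoter printed above, was on in 7 lines, from 37 in a sample of MC38-MOCK#1 to 553 in a sample of MC38-MOCK#2, and at 0, 0 and 2 in that line. Ky, a muscle protein gene, was at 287, 277 and 368 in MC38-MOCK#2 and at 0 in all samples of the line labelled MC38-FUT4, so that the mean of MC38-MOCK#2 was at least 104-fold higher. Oaf was at 370, 407 and 768 in MC38-FUT9, at 104, 112 and 104 in MC38-WT and at 0, 0 and 1 in the line labelled MC38-FUT4. Grk3, a kinase of activated G protein-coupled receptors, was instead on in MC38-FUT9 alone, at 656, 608 and 760, and at 10 or less in the other 21 samples. Six3os1, a non-coding transcript from the strand opposite the homeobox gene Six3, was at 263, 249 and 283 in MC38-FUT9 and on in MC38-WT, MC38-CMAS KO and MC38-COSMC KO, but at 0 in all samples of MC38-MOCK#1. MC38-DKO had 2, 0 and 0 for Six3os1. Of the 252 genes, 30 do not encode a protein, among them 9 lincRNAs, 7 antisense RNAs and 7 processed pseudogenes. The setting of strand in the counting is not given in the sources used here, so reads of an antisense gene and of its partner may not have been kept apart.

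Esp15 and Fam19a1 came closest to a clean switch, being on in 1 line and off in the 7 others. Esp15, a pheromone peptide gene, was at 64, 48 and 69 in the line labelled MC38-FUT4 and at 0 in every other sample. Fam19a1, a gene of secreted brain peptides, was at 37, 35 and 33 there and at most at 2 elsewhere. A further 6 genes were on in 7 lines and off in 1.

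Between pairs of lines, the number of on-off genes ran from 0 to 118. The percent beside each count is the background, the share that was on-off between the pair among all 12769 genes on in a line, including the chromosomes and families left out of the 252, so it is not the count as a percent. The line labelled MC38-FUT4 and MC38-FUT9 differed by the most, with 94 genes on in the former and off in the latter and 24 the other way, beside 1.14% of all genes on in a line. MC38-MOCK#1 and MC38-FUT9 differed by 102 genes (1.03%), MC38-DKO and MC38-FUT9 by 104 (1.02%), MC38-CMAS KO and MC38-FUT9 by 58 (0.54%) MC38-MOCK#2 and MC38-FUT9 by 51 (0.478%) and MC38-COSMC KO and MC38-FUT9 by 43 (0.47%). The line labelled MC38-FUT4 differed from MC38-MOCK#2 by 46 genes (0.446%), from MC38-MOCK#1 by 36 (0.376%) from MC38-DKO by 34 (0.345%), from MC38-COSMC KO by 24 (0.251%) and from MC38-CMAS KO by 17 (0.164%). MC38-MOCK#2 differed from MC38-DKO by 22 (0.211%), from MC38-CMAS KO by 17 (0.149%) and from MC38-COSMC KO by 11 (0.117%). The control lines MC38-MOCK#1 and MC38-MOCK#2 differed by 24 genes (0.251%). Counted against the parental line, the number was 11 for MC38-MOCK#1 (0.125%), 15 for MC38-DKO (0.164%), 3 for MC38-CMAS KO (0.0313%), 3 for MC38-MOCK#2 (0.0313%), 1 for MC38-COSMC KO (0.0157%), 22 for the line labelled MC38-FUT4 (0.219%) and 32 for MC38-FUT9 (0.345%).

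**Figure D3:**
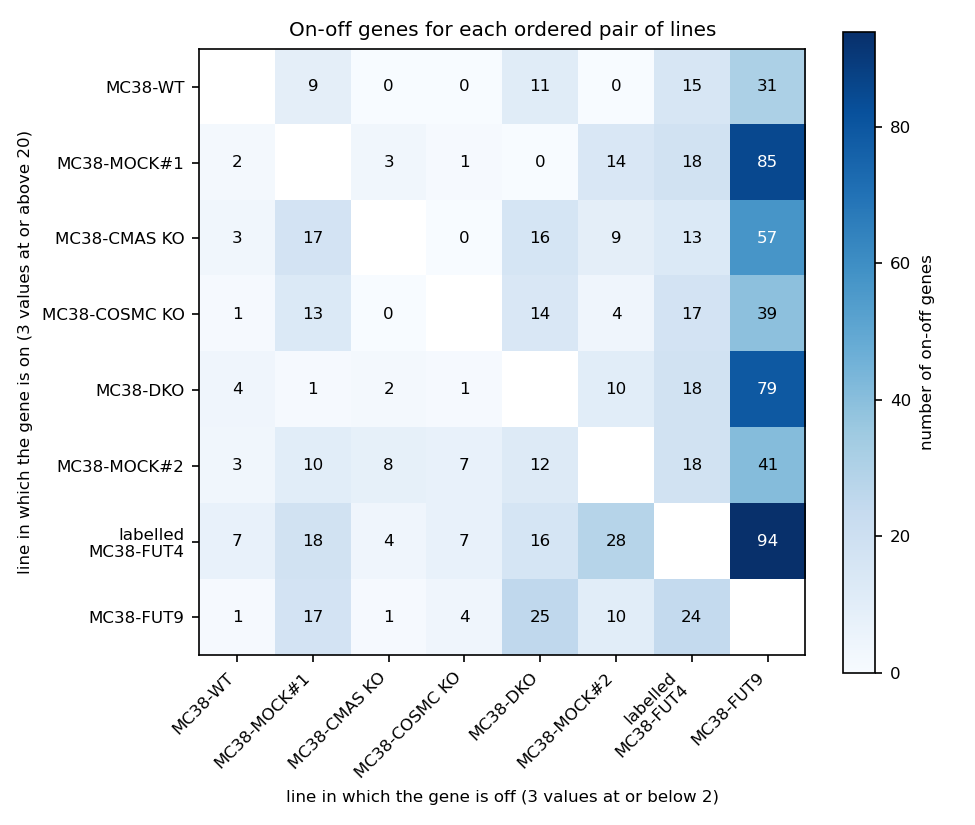
Each cell gives the number of the 252 genes that were on in the line of the row and off in the line of the column. The column of MC38-FUT9 holds the largest counts, up to 94 for the line labelled MC38-FUT4, and the cells joining MC38-MOCK#1 with MC38-DKO and MC38-CMAS KO with MC38-COSMC KO hold 0 or 1.

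Within the Cas9 lines the genes fell into pairs of lines that the labels do not put together. MC38-MOCK#1 and MC38-DKO had 68 genes on in common and 37 off in common, and only 1 was on in one and off in the other (0.00783% of all genes on in a line). MC38-CMAS KO and MC38-COSMC KO had 45 on in common, 11 off in common and none opposed (0.0157% of all genes). Across these pairs, MC38-MOCK#1 and MC38-CMAS KO differed by 20 genes (0.18%), MC38-MOCK#1 and MC38-COSMC KO by 14 (0.157%), MC38-CMAS KO and MC38-DKO by 18 (0.172%) and MC38-COSMC KO and MC38-DKO by 15 (0.149%). MC38-WT was also close to MC38-CMAS KO and MC38-COSMC KO, with 38 and 36 genes on in common and 3 and 1 opposed (0.0313% and 0.0157% of all genes). In all, 26 genes were on in MC38-MOCK#1 and MC38-DKO and in no other line. For genes on or off in common, no share over all genes was computed. Pdpn, the mucin-like membrane protein podoplanin, had 67, 76 and 53 in MC38-MOCK#1 and 43, 107 and 88 in MC38-DKO, 24 or less in MC38-WT and 14 or less elsewhere. Nfasc, a neuronal adhesion molecule, had 59, 42 and 47 and then 43, 47 and 48, and was at 22 or less elsewhere. The imprinted gene Snrpn was at 30, 31 and 20 in MC38-MOCK#1 and at 37, 33 and 35 in MC38-DKO. Zrsr1, also imprinted, was on in MC38-DKO at 45, 27 and 28 and missed the threshold in MC38-MOCK#1 with 27, 33 and 16. Both were at 5 or less in the samples of every other line. Medag was the reverse, at 0 in all samples of MC38-MOCK#1, MC38-DKO and the line labelled MC38-FUT4 and at 15 to 33 in MC38-CMAS KO, MC38-COSMC KO and MC38-WT. Of the on-off genes, 18 were off in MC38-MOCK#1 and MC38-DKO while on in MC38-CMAS KO, MC38-COSMC KO or MC38-WT, and 15 were off in both and on in MC38-FUT9. Nutm1, normally a testis gene, was an exception, on in MC38-MOCK#1 alone at 66, 61 and 93, with 3, 2 and 2 in MC38-DKO.

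The same genes can be read as a design of 2 knockouts, since the labels give loss of C1galt1c1 once without and once with loss of Cmas, though C1galt1c1 RNA in MC38-DKO lay within the range of lines in which it was not targeted. All samples of MC38-COSMC KO were above all of MC38-MOCK#1 while all of MC38-DKO were below all of MC38-CMAS KO in 48 of the 252 genes (19%), against 9.73% of all genes on in a line. The reverse held for 58 (23.0%), against 9.95%. The differences had the same sign in 3 genes, both higher, and 7, both lower, against 0.345% and 0.548% of all genes. The rule used these samples, so nothing is read from the counts beyond the direction of the differences.

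The same samples chose these genes, so that more of them than of all genes had to be called by limma, and nothing is read from the following counts at an adjusted p below 0.05. Of the on-off genes, 36 of 238 tested were higher and 99 lower in MC38-FUT9 than in MC38-MOCK#2, against 12.1% and 12% of all genes. For the line labelled MC38-FUT4, 105 of 247 were higher and 61 lower than in MC38-MOCK#2, against 8.1% and 8.04%. Between the control lines, 54 of 243 were higher and 96 lower in MC38-MOCK#2 than in MC38-MOCK#1, against 5.3% and 6.02%. Against MC38-MOCK#1, MC38-DKO had 2 higher and 2 lower of 234 (0.023% and 0.069% of all genes), MC38-CMAS KO 56 higher and 41 lower of 249 (3.02% and 2.73%), MC38-COSMC KO 47 higher and 62 lower of 245 (6.17% and 5.39%) and MC38-WT 51 higher and 57 lower of 249 (2.7% and 2.81%).

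The same role groups also hold genes that are on in a line but not on-off, here with those on the chromosomes and in the families left out of the 252, and these were tested in the pairwise comparisons. Of 83 matrix genes tested between MC38-FUT9 and MC38-MOCK#2 by limma, 27 rose and 30 fell at an adjusted p below 0.05 (68.7% called), and of 70 growth factor and receptor genes 27 rose and 9 fell (51.4%). Of 173 immune genes 20 rose and 59 fell (45.7%), and of 95 adhesion and guidance genes 20 rose and 21 fell (43.2%). Of 369 zinc finger protein genes 81 rose and 32 fell (30.6%), and of 71 named non-coding RNAs 9 rose and 10 fell (26.8%). Over all 12454 genes on in a line and not on-off, 2218 rose and 2093 fell (34.6%), of which the named genes without a group had 37.5% called and the unnamed ones 14.4%. On the scale of equal totals the direction of all calls in this comparison shifts, from 2596 higher and 2570 lower to 1979 and 3237. For the matrix genes in the line labelled MC38-FUT4 against MC38-MOCK#2, 14 rose and 26 fell (48.2%), against 22.3% over all such genes. Immune genes there had 33 higher and 28 lower of 173 (35.3%), and growth factor and receptor genes 12 higher and 18 lower of 70 (42.9%). For the matrix genes in MC38-MOCK#2 against MC38-MOCK#1 21 rose and 11 fell (38.6%), against 15.8%.

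Passage number, which the rule did not name, was tested within lines over all 24 samples by limma with a term for each line. The rule did ask all 3 samples of a defining line to lie on the same side of a threshold. A gene that switched with passage in those lines could therefore not be chosen, which limits what the test can show for the 252 genes. None of the 252 on-off genes and 0 of 13325 genes tested changed with passage at an adjusted p below 0.05. Without adjustment, 15 of the 252 (5.95%) and 756 of all genes (5.67%) had p below 0.05. The smallest p among the on-off genes was that of Kcnj16, with a log2 slope of 0.44 ± 0.12 (SE) per passage and an adjusted p of 0.76 by limma. Pde1a, a cyclic nucleotide phosphodiesterase, followed with -0.56 ± 0.16 and an adjusted p of 0.76 by limma. Each line was sampled at 3 passages at most, and slow changes over longer culture were not tested. Passage and harvest cannot be told apart here.

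The position of the genes was also left aside by the rule. In 16 cases 2 on-off genes lay within 100 kb of each other, and 30 of the 252 genes took part. Over the 24 samples, log2 levels of the partners had a correlation above 0.5 in 11 of the 16 and below 0 in 3, given as a description over samples that share lines. Tmem45a and the adhesion receptor gene Adgrg7, 9305 bases apart, had r = 0.91: the line labelled MC38-FUT4 had Tmem45a at 141, 114 and 118 and Adgrg7 at 117, 110 and 131, and no other sample exceeded 16 and 8. Their promoters, printed above, differ in CpG content. C1rl, C1s1 and C1rb, genes of the first complement component's proteases within a stretch of chromosome 6, were on together in MC38-MOCK#2, where C1s1 had 58, 47 and 195, and off together in MC38-FUT9, where C1s1 had 2, 2 and 1. Gm10634 and Gm2396 had r = 0.94, and Zfp760 and Zfp229 r = 0.87, though zinc finger and complement genes of the same cluster are similar in sequence and can share reads. Not all neighbours moved as a pair, since Anxa6, a membrane-binding annexin, and Gm2a, a cofactor of ganglioside breakdown, lie 64669 bases apart and had r = -0.54. Anxa6 was at 1, 2 and 0 in MC38-FUT9, where Gm2a was on at 32, 20 and 26, and Gm2a was at 0 in all samples of the line labelled MC38-FUT4, where Anxa6 was at 186, 150 and 178.

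Genes beside the on-off genes that did not meet the thresholds themselves were tested in the pairwise comparisons by limma. The nearest tested gene on either side within 1 to 100 kb gave 217 pairs from 104 on-off genes, and in 54 of these pairs the neighbour was called in the direction of the on-off gene (24.9%, exact Clopper-Pearson 95% interval 19.3 to 31.2, which covers counting error only), against 7.88% of all genes called in that direction. In 6 pairs it was called in the opposite direction (2.76%), against 7.82%. The comparisons share control lines and on-off genes share neighbours, so the pairs are not independent. In MC38-FUT9 against MC38-MOCK#2, 30 of 64 pairs had the neighbour called with the on-off gene (46.9%, against 12%), and 3 against it. These 30 pairs hold 26 distinct neighbours, and C1ra is in 3 of them. In the line labelled MC38-FUT4 against MC38-MOCK#2 the count of pairs was 12 of 67 (17.9%, against 8.07%), and in MC38-MOCK#2 against MC38-MOCK#1 8 of 36 (22.2%, against 5.72%). In MC38-COSMC KO, MC38-CMAS KO, MC38-WT and MC38-DKO against MC38-MOCK#1 there were 3 of 18, 1 of 14, 0 of 16 and 0 of 2. The shares of all genes called in that direction were 6.12%, 2.96%, 2.73% and 0.023%.

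**Figure D4:**
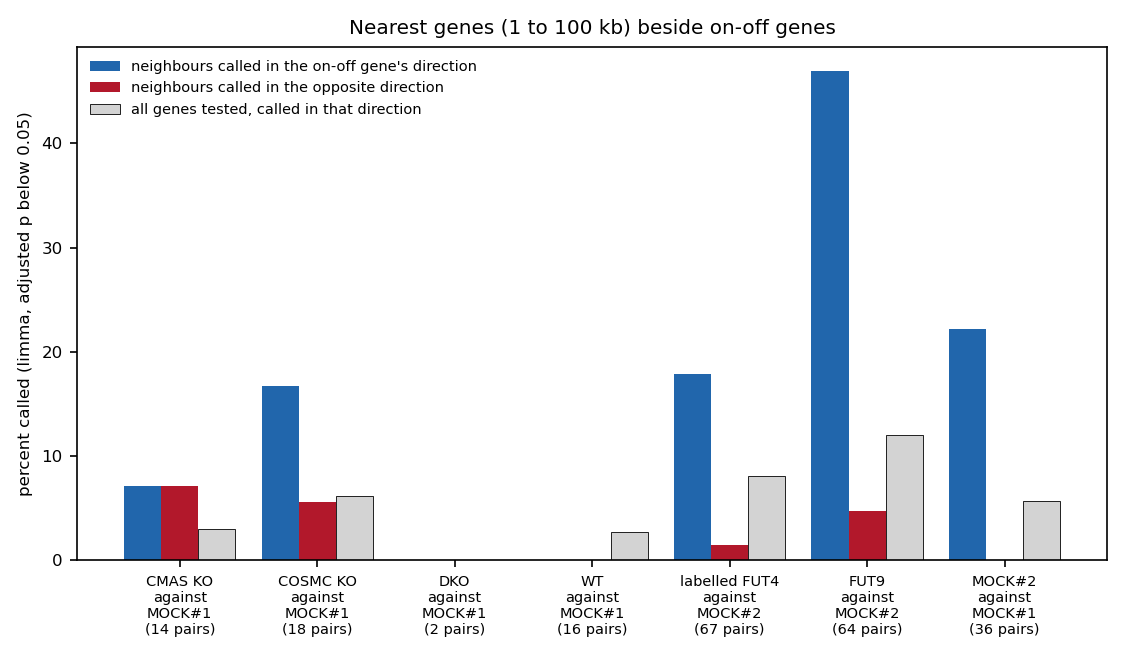
For each comparison the bars give the percent of pairs of an on-off gene and a nearest gene 1 to 100 kb away in which limma called the nearest gene in the direction of the on-off gene (blue) or in the opposite direction (red), beside the percent of all genes tested called in that direction (grey). MC38-FUT9 against MC38-MOCK#2 has the highest blue bar, at 46.9% beside 12%.

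Omd, a proteoglycan gene 15223 bases from Ogn, was at 117, 149 and 125 in MC38-MOCK#2 and at 5, 5 and 2 in MC38-FUT9, a log2 fold change of -4.78 ± 0.33 (SE) with an adjusted p of 0.000327 by limma. Akr1c13, beside Akr1c18, was at 112, 95 and 97 in the line labelled MC38-FUT4 and at 16, 25 and 16 in MC38-MOCK#2, a log2 fold change of 2.38 ± 0.23 with an adjusted p of 0.0012 by limma. Akr1c13, unlike Akr1c18, was detected in every sample. Fuca1, a lysosomal fucosidase gene beside Pnrc2, was called lower in the line labelled MC38-FUT4 than in MC38-MOCK#2. The change was small, -0.53 ± 0.09 with an adjusted p of 0.0106 by limma, while Pnrc2 went from 344 or more to 2 or less. Fuca1 was at 349, 334 and 322 in the line labelled MC38-FUT4. Only MC38-MOCK#2 stood apart, at 433, 496 and 523, and the remaining lines had 277 to 374. Srsf10, 1009 bases from Pnrc2, was not called, with -0.19 ± 0.09 and an adjusted p of 0.193 by limma. C1ra, beside the on-off complement genes, fell from 97, 115 and 211 in MC38-MOCK#2 to 1, 4 and 3 in MC38-FUT9, a log2 fold change of -5.29 ± 0.45 with an adjusted p of 0.000607 by limma. Sprr1b, 45162 bases from the on-off gene Sprr1a, was at 32, 37 and 12 in MC38-MOCK#2. In the line labelled MC38-FUT4 Sprr1b was at 629, 1557 and 580, a log2 fold change of 5.03 ± 0.51 with an adjusted p of 0.00143 by limma. Some other called neighbours were near 0 or changed little. Astn2, beside Pappa, was at 2 or less in every sample, and A830036E02Rik, beside Krt20, at 9 or less. Psmb7, beside Nr5a1, was at 2367, 2549 and 2269 in MC38-MOCK#2 and at 1757, 2046 and 1812 in MC38-FUT9.

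Promoter sequence, too, was not used by the rule. RefSeq windows matched 158 of the 252 genes. Their median was 8.5 CG in 250 bases (quartiles 3 and 14.5), against 17 (11 and 23) in 8809 genes on in a line and not on-off. Since on-off genes are expressed at low levels, the genes with a highest line median below 100 were compared apart: the median was 8.5 in 129 on-off genes and 11 in 971 others. At 3 or fewer CG were 28.7% of the former and 15.2% of the latter, and at 15 or more 23.3% and 36.5%. Over all 27018 genes with a window, expressed or not, the median was 6. The genes on in the line labelled MC38-FUT4 alone had a median of 5 over 28 windows, with 2 of them at 15 or more CG, and those off in MC38-FUT9 alone had 8.5 over 62. On-off genes were therefore poorer in CpG than other expressed genes on average, but 39 of the 158 (24.7%), Plcb1 and Pnrc2 among them, had 15 or more. No methylation was measured in these samples.

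**Figure D5:**
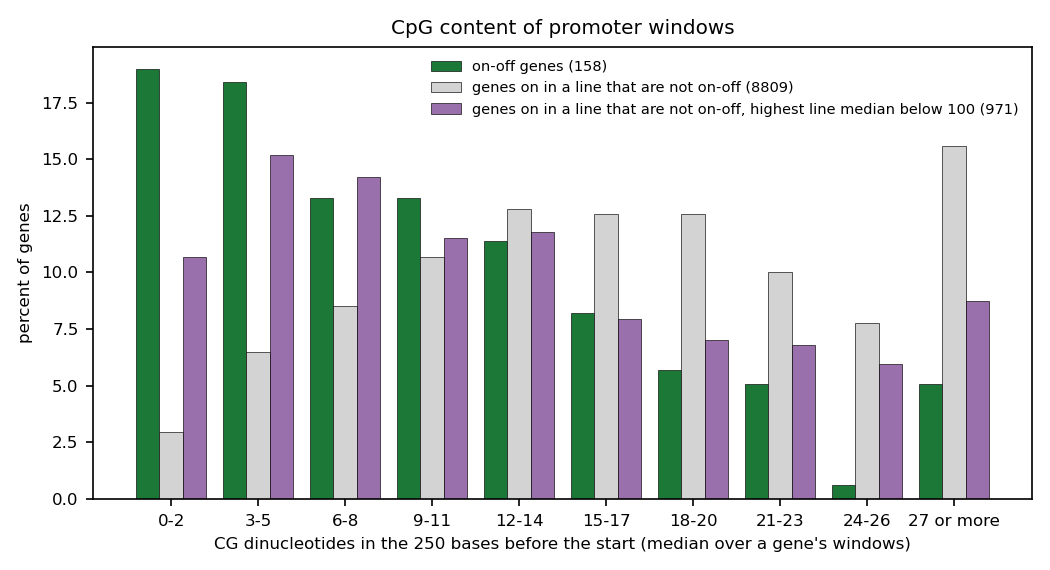
Bars give the percent of genes by the number of CG dinucleotides in the 250 bases before the RefSeq start, for 158 on-off genes (green), 8809 other genes on in a line (grey) and the 971 of these with a highest line median below 100 (purple). Of the on-off genes, 19% fall in the class of fewest CG and 5.06% in the class of most, against 2.96% and 15.6% of the other genes on in a line.

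The thresholds cut through a continuous range. Just inside, Ephx1, an epoxide hydrolase gene, was at 21, 20 and 26 in the line labelled MC38-FUT4 and at 0, 0 and 1 in MC38-FUT9, and Thbs1, Stxbp2 and Pnrc2 were among 99 genes with a sample at 2 in their lowest line. Just outside, Dhrs3, a retinal reductase gene, was at 22, 19 and 57 in MC38-MOCK#2 and at 1, 2 and 2 in MC38-FUT9. Cacna1c, a calcium channel gene, missed the rule with 747, 799 and 954 in MC38-MOCK#2 and 3, 2 and 3 in MC38-FUT9, and Ptgs1, a cyclooxygenase gene, with 506, 587 and 713 and then 2, 3 and 1. Cacna1c and Ptgs1 were thus as far apart between lines as many genes inside. They were taken for their high values from 51 genes just outside the lower threshold, and the rest were not described.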

How the data were processed

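RNA of 24 MC38 samples, 3 from each of 8 lines, was sequenced by the authors as stranded poly(A) libraries. The authors trimmed the reads with Sickle, aligned them to GRCm38 with HISAT2 2.0.4, processed them with SAMtools 0.1.19, counted them per gene with featureCounts of Subread 1.5.0-p3 and scaled the counts with edgeR 3.18.1 for library size and TMM. The deposited values are treated as a score, because the authors rounded the scaled counts to whole numbers and the raw counts were not used here. The totals of 10911849 to 12263307 per sample come after that scaling, so the sequencing depth, which sets the precision of low values, is unknown here.

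Genes were chosen by the on and off thresholds of 20 and 2 normalized counts over all 24 samples. The genes, the role groups and the lists were chosen with earlier results of these data known. Named genes were taken by the size of their gap among all 252 genes, per role group and per line, together with genes at the thresholds and called neighbours. Epha3, Mgmt, Syk, Pdpn, Nfasc, Snrpn, Sphk1, Arsj, Itgb8, Hey1, C1ra, C1rl, C1s1, C1rb, Anxa6, Gm2a, Esp15, Fam19a1, Tmem45a, Zfp760, Gm10634, Gm2396, Pde1a, Usp18, Sprr1b, Gm13827 and Mrps36-ps2 fall outside that rule and were picked after their values were seen. Symbols and coordinates of 52403 genes came from GENCODE M21 (GRCm38), and promoter windows from RefSeq (GRCm38.p6).

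Lines were compared in pairs with limma 3.58.1 in R 4.3.3 on log2(normalized count + 1), with eBayes and a trend, no covariate and Benjamini-Hochberg adjustment, after genes with more than 4 zeros of 6 samples were dropped. Fold changes are on that scale, which understates those of low genes. Passage was fitted as a number beside a term for each line, over genes with at least 3 values at or above 20. The scripts were tested on simulated data. Samples were grouped by their titles. Samples 1 and 3 of the line labelled MC38-FUT4 are both of passage 7, and whether they are separate harvests is not given in the sources used here. Their median absolute log2 difference was 0.0641, the smallest in the series. The other pairs of samples within a line had 0.0925 to 0.2006. They were counted as separate samples. Alternatives were other thresholds and scalings, a joint fit of 8 lines, a replicate block, other distances to neighbours, and leaving out samples or lines.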

Additional observations from a re-analysis of the deposited data

Results flagged for a closer look

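The difference between MC38-COSMC KO and MC38-MOCK#1 and that between MC38-DKO and MC38-CMAS KO are by their labels the same contrast, loss of C1galt1c1, in cells with and without Cmas, and they stood out because all samples moved in opposite directions. This was so in 48 of the 252 on-off genes with the first difference higher and the second lower, and in 58 with the first lower and the second higher. Over all genes on in a line the shares were 9.73% and 9.95%. The rule used these samples, so nothing is read from the counts beyond the direction of the differences. Of the 252 genes, 1 was on in one and off in the other of MC38-MOCK#1 and MC38-DKO, and none of MC38-CMAS KO and MC38-COSMC KO. The difference between the 2 contrasts and its cause were not tested.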

How the results depend on the processing

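Of 74 alternatives other than leaving out a sample, 59 kept a count within 1.5 times its value and 15 did not. The number of on-off genes followed the thresholds: 429 with on at 10 or above, 89 with on at 50 or above, 65 with off at 0 and 380 with off at 5 or below. It was 225 with equal totals and 236 with median-of-ratios scaling, and, in alternatives chosen after seeing the data, 123 without MC38-FUT9 and 74 without the line labelled MC38-FUT4 as well. Leaving out a sample gave 253 to 279. In a joint fit of 8 lines the calls against MC38-MOCK#1 were 2207 for MC38-CMAS KO (1268 in the pairwise fit), 159 for MC38-DKO (20), 2981 for MC38-WT (1192) and 3976 for MC38-MOCK#2 (2454). The cause was not tested. The passage fit called 0 on-off genes in every alternative, also without each of the other 7 lines in turn, chosen after seeing the data.

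Leaving out each sample in turn gave 113 to 852 calls for MC38-CMAS KO, 667 to 2119 for MC38-COSMC KO, 0 to 5 for MC38-DKO and 31 to 703 for MC38-WT against MC38-MOCK#1. It gave 634 to 1708 for MC38-MOCK#2 against MC38-MOCK#1, and 1592 to 3074 for the line labelled MC38-FUT4 and 2694 to 5035 for MC38-FUT9 against MC38-MOCK#2. These fits have fewer samples. The lowest counts came without sample 2 of MC38-MOCK#1 for MC38-CMAS KO, MC38-WT and MC38-MOCK#2, without sample 2 of MC38-COSMC KO, without sample 3 of the line labelled MC38-FUT4 and without sample 1 of MC38-FUT9. For MC38-DKO the count was 0 in 4 of 6 such fits, without sample 1 or 2 of MC38-DKO or sample 1 or 3 of MC38-MOCK#1, where 1996, 1488, 2038 and 1520 genes had an unadjusted p below 0.05.

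By a cut of 0.1, the sample numbers were not taken to pair the samples. The correlation of same-numbered samples across genes, after the line means were removed, ran from -0.219 to 0.27, and in no comparison did all 3 pairs exceed 0.1. All 3 were positive for MC38-FUT9 against MC38-MOCK#2 (0.0912, 0.216 and 0.209) and MC38-MOCK#2 against MC38-MOCK#1 (0.158, 0.0948 and 0.27). Samples with different numbers were not compared, so pairing in these 2 comparisons is not settled. With the replicate number as a block, limma called 1 gene for MC38-CMAS KO, 4 for MC38-COSMC KO, 0 for MC38-DKO and 0 for MC38-WT against MC38-MOCK#1 at an adjusted p below 0.05. Unadjusted p-values below 0.05 numbered 3960, 4669, 1408 and 3788 in these comparisons. With the block it called 1756 for the line labelled MC38-FUT4 (3509 without) and 4963 for MC38-FUT9 (5166 without) against MC38-MOCK#2, and 2168 for MC38-MOCK#2 against MC38-MOCK#1.

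The share of neighbours called in the direction of the on-off gene was 25.7% within 50 kb, 22.4% from 10 to 100 kb, 22% within 500 kb and 25.8% with equal totals. With equal totals the calls of MC38-COSMC KO against MC38-MOCK#1 were 1125 higher and 1746 lower, against 1367 and 1196 as deposited. The rounding of the deposited values and their low level limit every statement about a gene called off.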

Other observations

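In 10 on-off genes at least 1 line held both a sample at or below 2 and a sample at or above 20. Gm13827, a processed pseudogene, did so in 5 lines, with 190, 139 and 1 in MC38-MOCK#1, 2, 213 and 1 in MC38-CMAS KO and 104, 1 and 0 in MC38-DKO, and it met the rule through MC38-FUT9 at 109, 149 and 114 and MC38-MOCK#2 at 1, 1 and 0. Gm12344 did so in 5 lines and Mrps36-ps2 in 3. Usp18, an interferon-responsive protease gene, had 15, 303 and 85 in MC38-WT and 43, 23 and 340 in MC38-MOCK#2, and was at 2, 2 and 1 in MC38-FUT9.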
